A study of Homo sapiens with 9 samples.

Results

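The genes described here are the nuclear genes for the subunits of the mitochondrial respiratory chain and ATP synthase, taken as the protein-coding genes of chr1 to chr22 and chrX in the GENCODE annotation of GRCh37 whose symbols start with NDUF, UQCR or ATP5, or with COX4 to COX8. The rule found 94 of 19756 protein-coding genes. They comprised 37 genes of complex I, 9 of complex III, 19 of complex IV and 19 of complex V, counting NDUFA4 and NDUFA4L2 with complex IV. The remaining members were 8 NDUFAF genes, which encode assembly factors of complex I and not subunits, and 2 read-through genes, ATP5MF-PTCD1 and NDUFC2-KCTD14, whose promoter peaks are those of ATP5MF and NDUFC2. ATP5IF1, counted with complex V, encodes an inhibitor of ATP synthase. The choice of members used symbols only and no measured value.

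RNA polymerase II (RNAPII) was mapped by ChIP-seq, which sequences the DNA bound by an immunoprecipitated protein, in the HEK293 line derived from human embryonic kidney. In the knockdown arm, HEK293 cells had been infected with a lentivirus carrying a control shRNA, RECQL5 shRNA5 or RECQL5 shRNA7, where RECQL5 is a DNA helicase that binds RNAPII. In the overexpression arm, HEK293 T-REx cells carried the pcDNA4/TO-RECQL5 plasmid, which places full-length RECQL5 under a doxycycline-inducible promoter, and received doxycycline at 0.0 or 1.0 ng/ml. The cells without doxycycline thus carry the plasmid too. Besides the 5 RNAPII libraries there were 4 IgG libraries, used by the authors as background. Each group was 1 library with no replicate, so no difference below was tested against replicate spread. All intervals and folds describe these libraries and cover counting error only.

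The peak lists held 5287, 23698 and 32124 peaks for the control shRNA, RECQL5 shRNA5 and RECQL5 shRNA7, and 47060 and 33900 peaks without and with doxycycline. The tags (aligned reads) inside peaks summed to 842310, 3778665, 6698771, 1449163 and 1539844 in the same order. The knockdown lists used here are shorter than the study describes them, the control shRNA list most of all, so gains from the control, absences of a peak and contrasts between hairpin and control lists hold for these lists only. The total reads of each library were not used here, so tag counts were compared only within an arm and beside the same ratio over all genes. RECQL5 itself carried 0, 0, 2, 8 and 8 peaks over its span in that order. RNAPII occupancy does not measure knockdown, and reads from the plasmid cannot be told apart from those of the chromosomal gene.

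The respiratory chain sits in the inner mitochondrial membrane. Complex I (NADH dehydrogenase), complex III (cytochrome bc1) and complex IV (cytochrome c oxidase) pass electrons to oxygen and pump protons, and complex V (ATP synthase) uses the proton gradient to make ATP. A few subunits are encoded by mitochondrial DNA, and the rest by nuclear genes that RNAPII transcribes, most of them from housekeeping promoters. NRF-1, the ETS-family factor GABP (NRF-2) and YY1 are known regulators of many of these genes.

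Promoter letters that match such factors were more frequent among the members than among coding genes at large. In the 300 bases from 250 before to 50 past the start of the canonical transcript (GRCh37), the NRF-1 core GCGCANGCG, read on both strands, was found in 26 of 94 members (27.7%) and in 10.9% of all 19756 coding genes. The ETS and GABP core CCGGAAG was found in 24 members (25.5%, against 14.0%), and the YY1 letters AAGATGGCG in 10 (10.6%, against 2.84%). Among the 12687 coding genes with an RNAPII peak in the no doxycycline list, the shares were 15.1%, 19.5% and 4.27%. The GC box GGGCGG did not stand out, with 60.6% of members and 61.3% of all genes, nor did TATAAA, with 6.38% and 9.74%. By complex, the NRF-1 letters were in 10 of 37 genes of complex I, 5 of 9 of complex III, 3 of 19 of complex IV and 7 of 19 of complex V. A match describes letters in a window and not a bound site.

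A set of 8 promoter stretches of 100 bases is given here as examples of such matches among the complexes, in stretches free of annotated exons. They run 5′ to 3′ on the gene's strand in GRCh37, with matches to the NRF-1, GABP and YY1 letters and to the CREB letters TGACGTCA on either strand in capitals. UQCR11 is read from chr19:1605473-1605572 (minus strand), ATP5F1D from chr19:1241645-1241744 (plus), ATP5MC3 from chr2:176046439-176046538 (minus) and NDUFA5 from chr7:123197959-123198058 (minus). NDUFB4 is read from chr3:120315075-120315174 (plus), COX5B from chr2:98262425-98262524 (plus), COX6B1 from chr19:36139125-36139224 (plus) and COX8C from chr14:93813428-93813527 (plus). Of these genes, 7 had a promoter peak in both doxycycline lists, and COX8C, a testis isoform, had no peak in any list although it holds the NRF-1 letters.
UQCR11: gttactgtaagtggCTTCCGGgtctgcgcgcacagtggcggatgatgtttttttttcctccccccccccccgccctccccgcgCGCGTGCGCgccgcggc
ATP5F1D: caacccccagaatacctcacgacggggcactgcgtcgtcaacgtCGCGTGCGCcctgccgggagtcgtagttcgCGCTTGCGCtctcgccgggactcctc
ATP5MC3: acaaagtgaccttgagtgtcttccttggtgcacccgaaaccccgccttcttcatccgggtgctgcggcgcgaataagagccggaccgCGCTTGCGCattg
NDUFA5: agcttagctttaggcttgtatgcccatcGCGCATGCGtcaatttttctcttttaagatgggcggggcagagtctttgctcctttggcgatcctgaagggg
NDUFB4: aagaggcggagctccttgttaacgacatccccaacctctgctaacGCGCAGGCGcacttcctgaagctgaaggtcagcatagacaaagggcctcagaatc
COX5B: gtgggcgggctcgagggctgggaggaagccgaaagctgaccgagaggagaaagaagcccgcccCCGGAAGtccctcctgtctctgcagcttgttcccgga
COX6B1: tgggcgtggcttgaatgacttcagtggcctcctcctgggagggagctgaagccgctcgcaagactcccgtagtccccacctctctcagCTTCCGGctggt
COX8C: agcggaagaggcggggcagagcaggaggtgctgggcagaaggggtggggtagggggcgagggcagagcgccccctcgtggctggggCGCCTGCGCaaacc

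Most members carried RNAPII peaks. A gene was counted when at least 1 peak touched its span widened by 500 bp on each side. Without doxycycline, 88 of 94 members had a peak (93.6%, 95% Wilson interval 86.8 to 97.0%), against 64.2% of all coding genes. With doxycycline, 86 members did (91.5%, 84.1 to 95.6%), against 53.6%. In the knockdown arm the counts were 42 with the control shRNA (44.7%, 35.0 to 54.7%, against 22.5%), 84 with RECQL5 shRNA5 (89.4%, 81.5 to 94.1%, against 52.6%) and 85 with RECQL5 shRNA7 (90.4%, 82.8 to 94.9%, against 60.6%). The members' share was above the background in all 5 lists. When each list was cut to the 5287 peaks of the shortest, the members' shares became 44.7%, 47.9% and 52.1% in the knockdown arm and 57.4% and 54.3% in the overexpression arm, against 22.5%, 25.7%, 28.5%, 26.4% and 23.2% of all genes. The gap between members and all genes thus remained at equal list length, whereas most of the difference between the control and the hairpin lists did not.

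**Figure D1:**
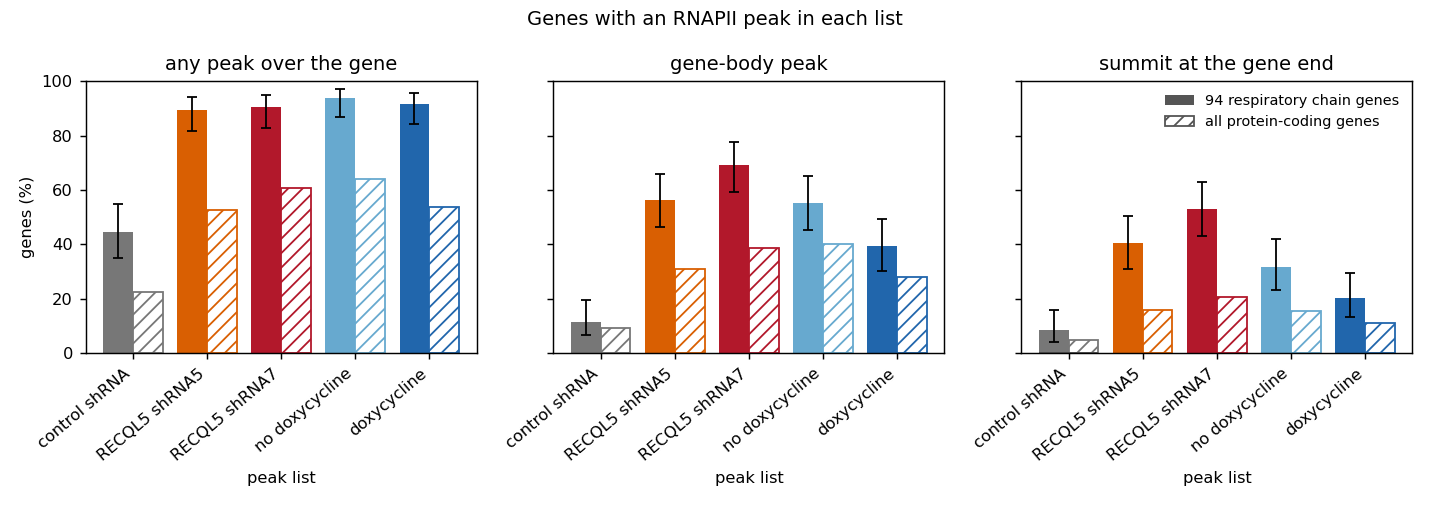
Share of genes (%, vertical axis) with any peak over the widened span, with a gene-body peak and with a peak summit at the gene end, in the 5 peak lists (horizontal axis), 1 library each. Filled bars are the 94 members with 95% Wilson intervals and hatched bars all 19756 protein-coding genes. In every panel and list the filled bar is higher than the hatched bar, from 8.51% against 5.06% for gene ends with the control shRNA to 93.6% against 64.2% for any peak without doxycycline.

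Most members followed 1 of 2 patterns of presence. A peak was present in all 5 lists for 41 members (43.6%, against 21.1% of all genes), and in every list but the control shRNA list for 40. The share of all genes with the second pattern is not given here. A peak with RECQL5 shRNA5 and none with the control shRNA was found in 44.7% of members and 30.2% of all genes. With RECQL5 shRNA7 the shares were 46.8% and 39.0%. The complex V genes ATP5F1D, ATP5ME and ATP5PD, lacked peaks with the control shRNA and RECQL5 shRNA5. The peak-bearing genes were spread over the complexes. With the control shRNA, 16 of 37 genes of complex I, 4 of 9 of complex III, 8 of 19 of complex IV and 10 of 19 of complex V had a peak. With RECQL5 shRNA7 the counts were 36, 8, 14 and 17.

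**Figure D2:**
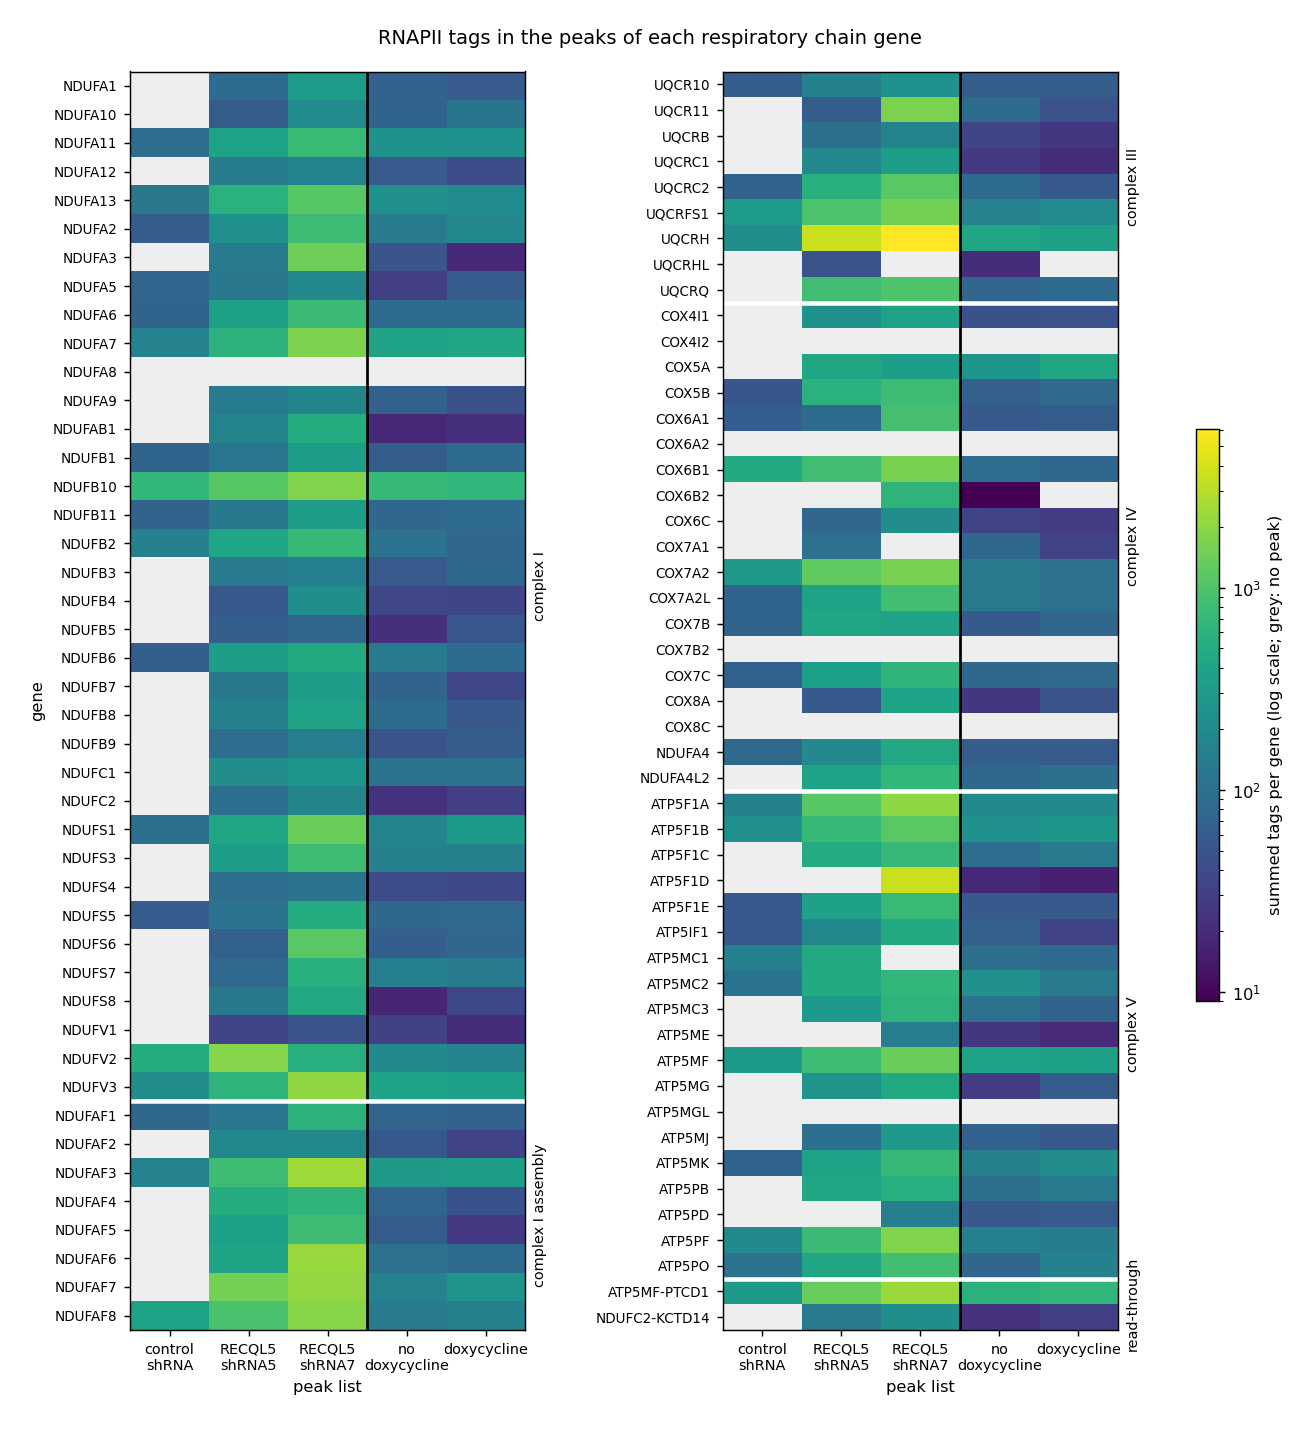
Summed tags in the peaks of the members (vertical axis, grouped by complex, 1 member not shown) in the 5 peak lists (horizontal axis), on a logarithmic colour scale, grey where no peak was listed. The black line separates the knockdown from the overexpression arm, whose tag counts are not on a common scale. The genes grey throughout number 6, and UQCRH holds the highest value, 6066 tags with RECQL5 shRNA7.

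The genes with no RNAPII peak were mainly paralogues known from other tissues. Of 9 such paralogues, ATP5MGL, COX4I2, COX6A2 (the heart and muscle isoform of COX6A), COX7B2 and COX8C had no peak in any list. COX7A1, the muscle isoform of COX7A, had 0, 104, 0, 80 and 34 tags in the order control shRNA, RECQL5 shRNA5, RECQL5 shRNA7, no doxycycline and doxycycline. COX6B2, a testis isoform, had 617 tags with RECQL5 shRNA7 and 9 without doxycycline, and no peak at its start in any list. With summits outside the widened span left out, COX6B2 had 270 tags with RECQL5 shRNA7, and COX7A1 had 0 with RECQL5 shRNA5. UQCRHL, an intronless copy of UQCRH, had 48 tags with RECQL5 shRNA5 and 21 without doxycycline, and since the copies are nearly identical its values are uncertain. NDUFA4L2, known as a hypoxia-induced gene, had peaks in every list but the control list, with 392, 676, 82 and 101 tags. None of the 9 had a control shRNA peak, while the widely expressed partner COX7A2 had 307, 1248, 1613, 134 and 105 tags and COX4I1 had 0, 257, 389, 45 and 48.

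NDUFA8 was the sixth member with no peak, and it is not tissue-restricted: it encodes an accessory subunit of complex I found in all tissues. Its span is chr9:124906337-124922058 (GRCh37), and its absence holds for the lists as used here. The nearest peak lay 104.367 kb away with the control shRNA, 77.433 and 78.498 kb away with RECQL5 shRNA5 and RECQL5 shRNA7, and 50.431 and 104.41 kb away without and with doxycycline. MORN5, which starts divergently from the NDUFA8 promoter, was therefore also without a peak at its start, although the promoter window of NDUFA8 holds the NRF-1 letters.

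At the promoters, the median peak density of the members was higher with either hairpin than with the control. The transcription start site (TSS) was called covered when a peak came within 500 bp of an annotated start, and density was given as tags per kb of the peak. The median TSS-peak density of members was 51.9 tags per kb with the control shRNA (39 members), 61.5 with RECQL5 shRNA5 (81) and 74.7 with RECQL5 shRNA7 (82). Single members ranged from 40.2 to 110.8, from 36.8 to 152.6 and from 37.6 to 215.3 tags per kb. For members with a TSS peak in both lists, the median density ratio to the control was 1.37 for RECQL5 shRNA5 (n = 39) and 1.57 for RECQL5 shRNA7 (n = 38), close to 1.34 and 1.57 for all genes. Density per kb of all assigned peaks placed the median member at percentile 54.3, 57.8 and 64.0 of the peak-bearing genes in the knockdown arm and at 67.6 and 66.8 without and with doxycycline. On summed tags, which favour long peaks, the median percentiles were 42.7, 55.4, 60, 57.7 and 56.0.

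Tags summed per gene rose more than density, and the members' peaks were also longer at the median and more numerous. The 42 members with a control peak held 57 peaks with the control shRNA, 103 with RECQL5 shRNA5 and 109 with RECQL5 shRNA7. The median length of the peaks assigned to members was 1638 bp with the control shRNA, 1881 bp with RECQL5 shRNA5 and 2362 bp with RECQL5 shRNA7, and the longest reached 7379, 34095 and 32133 bp. Over the whole lists the medians were 1905, 1834 and 2024 bp, so peaks at large were not longer with RECQL5 shRNA5. The members with a peak also differ between the lists, so these medians do not follow the same peaks. The median share of a member's canonical span under peaks was 12.3%, 27.2% and 52.3%, against 5.13%, 8.72% and 13.8% for all genes with a peak. Members are short, with a median canonical span of 8435.5 bp against 22487.5 bp, so a peak of given length covers more of them. The part of gene length in the difference was not tested.

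Tag ratios to the control were above 1 in all members with a peak in both lists, as in 98.9% of all such genes with RECQL5 shRNA5 and 99.3% with RECQL5 shRNA7. ATP5MC1, with no listed peak with RECQL5 shRNA7, has no such ratio there. With RECQL5 shRNA5 the 42 members with peaks in both lists had a median ratio of 3.70 (quartiles 2.38 to 4.99), against 3.22 over 4423 genes. With RECQL5 shRNA7 the 41 such members had a median of 7.54 (4.88 to 10.6), against 6.62 over 4260 genes. A ratio of at least 2 was reached by 34 of 42 members (81.0%) with RECQL5 shRNA5, against 78.7% of all genes, and by 40 of 41 (97.6%) with RECQL5 shRNA7, against 95.8%. The members' ratios were thus near those of the whole list. Counting only peaks with their summit in the widened span, the medians were 2.6 and 5.71 for members and 2.9 and 5.67 for all genes. By that count not every member was above 1, since NDUFAF3 had 161 tags with the control shRNA and 116 with RECQL5 shRNA5.

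**Figure D3:**
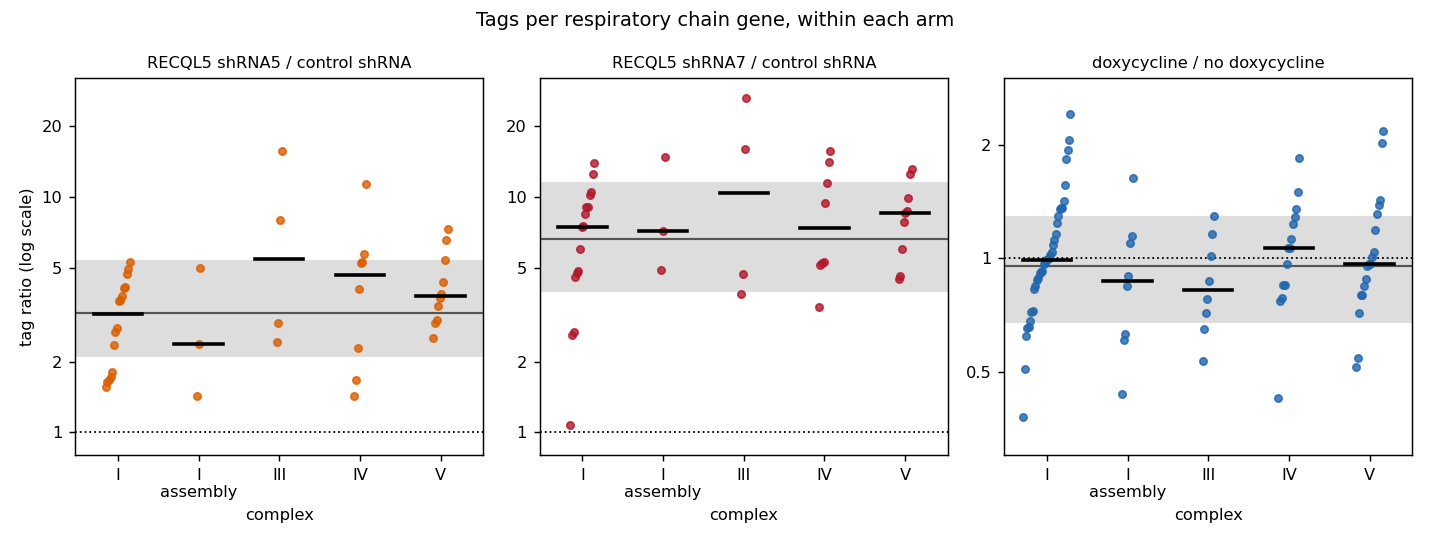
Ratio of summed tags (vertical axis, log scale) for members with a peak in both lists, by complex (horizontal axis), in RECQL5 shRNA5 and RECQL5 shRNA7 against the control shRNA and in doxycycline against none. Points are genes, black bars the medians, the grey line and band the median and quartiles of all genes, and the dotted line a ratio of 1. Every hairpin point lies above 1, the lowest being 1.07, and the doxycycline points spread from 0.38 to 2.41 around a median of 0.98.

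By complex, the medians with RECQL5 shRNA7 were 7.51 for complex I (n = 16), 10.4 for complex III (n = 4), 7.40 for complex IV (n = 8) and 8.55 for complex V (n = 9). With RECQL5 shRNA5 they were 3.19, 5.49, 4.66 and 3.82 (n = 10 for complex V). The ranges overlapped between all 4 complexes. NDUFA11, an accessory subunit of complex I, stood at the median of the members with RECQL5 shRNA7, with 96, 397 and 724 tags and ratios of 4.14 (exact 95% counting interval 3.30 to 5.22) and 7.54 (6.09 to 9.43).

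Some of the highest ratios belonged to members whose peaks ran into or from a neighbour. UQCRH, the hinge protein of complex III at chr1:46769370-46782448, had 229, 3602 and 6066 tags in the knockdown arm, ratios of 15.7 (13.8 to 18.1) and 26.5 (23.2 to 30.4). Most of these tags came from a peak of 34095 bp with RECQL5 shRNA5 and of 32133 bp with RECQL5 shRNA7, which also touched LRRC41 and RAD54L and had its summit upstream, at -19397 and -19506 bp from the UQCRH start. With summits outside the widened span left out, UQCRH had 229, 350 and 648 tags. COX5B, a nuclear subunit of complex IV, likewise went from 51 to 583 and 803 tags, and 478 and 695 of them lay in a peak that ran into ACTR1B.

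UQCRC2, a core protein of complex III at chr16:21964609-21994981, had 71 tags in 1 control peak at its start, 571 in 6 peaks with RECQL5 shRNA5 and 1144 in 7 peaks with RECQL5 shRNA7, ratios of 8.04 (6.28 to 10.4) and 16.1 (12.7 to 20.8). Its hairpin peaks were spaced along the gene, and 571 and 852 tags remained when only summits in the widened span were counted. ATP5F1A, the alpha subunit of the catalytic head of ATP synthase, had 152, 1118 and 1999 tags, ratios of 7.36 (6.20 to 8.77) and 13.2 (11.1 to 15.6). With summits outside the widened span left out it had 152, 675 and 962. ATP5F1B, the catalytic beta subunit, had 245, 718 and 1137 tags, ratios of 2.93 (2.53 to 3.40) and 4.64 (4.04 to 5.35), with a peak past its end already present in the control list. Only 78, 276 and 257 of its tags lay in peaks with their summit in the widened span, so most of the ATP5F1B tags came from peaks centred past its end. The gamma and epsilon subunits of the head had 0, 496 and 713 tags (ATP5F1C) and 57, 374 and 719 tags (ATP5F1E).

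The lowest hairpin ratios among the members came from several complexes. NDUFA5 had 75, 123 and 194 tags, ratios of 1.64 (1.22 to 2.22) and 2.59 (1.97 to 3.42). NDUFB10 had 668, 1120 and 1788 tags, the most of any member in the control list, but its peaks in these lists also touched RPS2, a ribosomal protein gene, and the control and RECQL5 shRNA5 summits lay 2811 and 2824 bp past the NDUFB10 end. COX6B1 had 488, 816 and 1659 tags, with 350 control tags in a peak 1134 bp past its end. These 3 genes thus started from very different control levels.

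In the full lists, members with a peak inside the gene or at its end were more frequent with the hairpins. A gene-body peak touched the gene from 500 bp past its first start to its end and no annotated start window. It was found in 11 members with the control shRNA (11.7%, against 9.31% of all genes), 53 with RECQL5 shRNA5 (56.4%, against 31.1%) and 65 with RECQL5 shRNA7 (69.1%, against 38.7%). In the overexpression arm the counts were 52 without doxycycline (55.3%, against 40.2%) and 37 with it (39.4%, against 27.9%). With lists cut to 5287 peaks the shares were 11.7%, 24.5%, 31.9%, 5.32% and 7.45%, against 9.31%, 12.1%, 14.7%, 5.28% and 5.82% of all genes. Among peaks with a fold enrichment of at least 10, the shares were 9.57% with the control shRNA, 10.6% with RECQL5 shRNA5 and 31.9% with RECQL5 shRNA7, against 7.33%, 8.61% and 14.7% of all genes, so the RECQL5 shRNA5 increase was not seen there. At equal list length the hairpin lists still held more members with a gene-body peak than the control list. The doxycycline lists held 5 and 7 such members, in the opposite order to the full lists.

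Within each arm, members with a peak at the gene end followed the same order of lists. A gene-end peak had its summit from 1 kb before to 3 kb past the end of the canonical transcript and over 500 bp from any coding start, a definition added after the positions had been seen. It was found in 8 members with the control shRNA (8.51%, against 5.06% of all genes), 38 with RECQL5 shRNA5 (40.4%, against 15.8%) and 50 with RECQL5 shRNA7 (53.2%, against 20.8%), and in 30 (31.9%, against 15.7%) and 19 (20.2%, against 11.3%) without and with doxycycline. In complex V, 14 of 19 genes had one with RECQL5 shRNA5 and 13 with RECQL5 shRNA7, and in complex I 11 and 20 of 37. At equal list length the members' shares were 8.51%, 16.0%, 22.3%, 2.13% and 5.32%, against 5.06%, 6.66%, 8.62%, 1.99% and 2.64%.

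The place of the strongest peak, the one with the most tags, moved in the same direction. Its summit lay within 500 bp of the canonical start in 28 of 42 members with the control shRNA (66.7%, against 48.9% of all genes with a peak), 40 of 84 with RECQL5 shRNA5 (47.6%, against 41.4%) and 30 of 85 with RECQL5 shRNA7 (35.3%, against 39.1%). It lay within 1 kb of the end or farther downstream in 8 (19.0%, against 23.6%), 31 (36.9%, against 25.9%) and 38 (44.7%, against 31.4%). Among the 42 members with a control peak, 8 had it there with the control shRNA (19.0%, against 23.6% of all genes with a control peak), 17 with RECQL5 shRNA5 (40.5%, against 31.4%) and 19 of the 41 with a RECQL5 shRNA7 peak (46.3%, against 36.1%). At equal list length the shares at or past the end were 19.0%, 44.4% and 46.9%, against 23.6%, 34.5% and 42.1% of all genes. In the overexpression arm the start held it in 73 of 88 members without doxycycline (83.0%, against 66.5%) and 75 of 86 with it (87.2%, against 66.8%), and the end or beyond in 4 (4.55%, against 9.18%) and 4 (4.65%, against 10.1%).

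**Figure D4:**
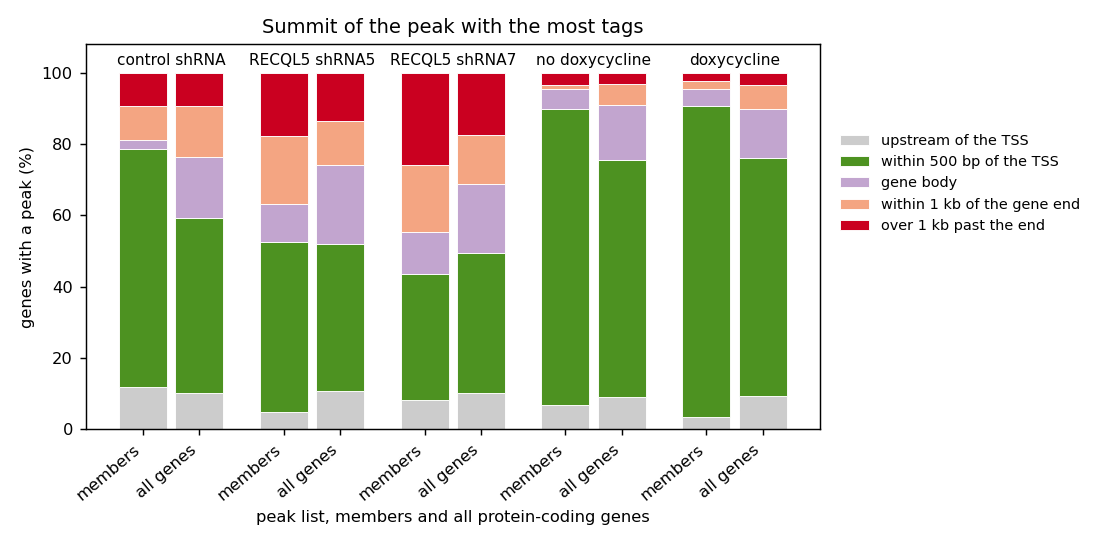
Place of the summit of the peak with the most tags, as a share of genes with a peak (%, vertical axis), for members and all protein-coding genes in the 5 lists (horizontal axis). Colours give upstream, within 500 bp of the start, gene body, within 1 kb of the end and over 1 kb past the end. The start share of members falls from 66.7% with the control shRNA to 47.6% and 35.3% with the hairpins and is 83.0% and 87.2% in the overexpression arm.

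Neighbouring genes were part of these counts. Of the separate peaks assigned to members, 52.7%, 41.2%, 45.0%, 38.1% and 42.8% in the 5 lists also touched another coding gene, and only 27 members (28.7%) had no other coding gene within 2 kb, against 51.2% of all coding genes. Among those 27, the strongest peak lay at or past the end in 1 of 10 with the control shRNA, 7 of 24 with RECQL5 shRNA5 and 10 of 23 with RECQL5 shRNA7 (29.2% and 43.5% with the hairpins), against 14.9%, 19.2% and 24.0% of all such genes. A gene-end peak was present in 2, 10 and 13 of the 27, against 2.66%, 11.3% and 16.7% of all such genes. The increase with the hairpins was therefore also present in members with no close coding neighbour, on small counts.

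**Figure D5:**
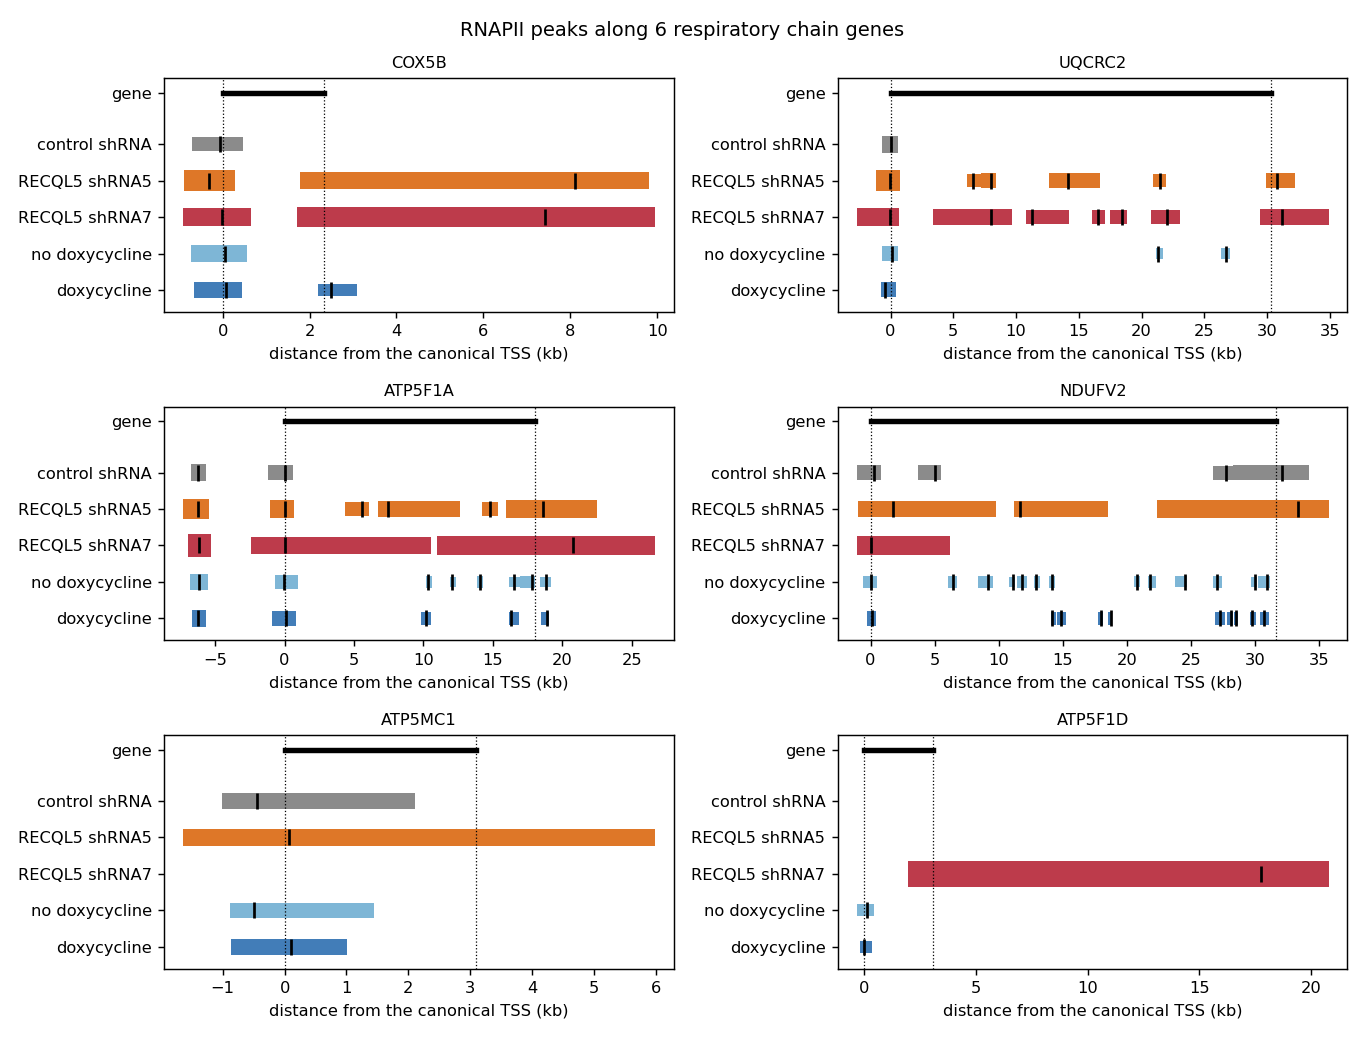
Peaks of 6 members in the 5 lists (rows), drawn by distance from the canonical start in kb (horizontal axis) in the direction of transcription, with bar height growing with tag density, a black tick at each summit and dotted lines at the start and end of the gene. COX5B, UQCRC2 and ATP5F1A have peaks past their start with both hairpins and not with the control shRNA. With RECQL5 shRNA7, NDUFV2 has no peak near its end, ATP5MC1 has none, and the ATP5F1D peak has its summit 14666 bp past the end of the gene.

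Presence and absence gave the same picture as the counts. With RECQL5 shRNA5, 42 members gained a peak (44.7%, against 30.2% of all genes) and 0 lost theirs (against 0.132%). With RECQL5 shRNA7, 44 gained (46.8%, against 39.0%) and 1 lost its peak (1.06%, against 0.957%). The gained members included COX4I1, COX5A, UQCRQ and NDUFS3, an iron-sulphur protein of the complex I core, with 0, 341 and 804 tags. At equal list length 10.6% of members gained and 7.45% lost a peak with RECQL5 shRNA5, against 7.2% and 4.03% of all genes, and 21.3% gained and 13.8% lost one with RECQL5 shRNA7, against 12.0% and 5.94%.

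The hairpins differed at a few members. ATP5MC1, a gene for the c-ring of ATP synthase at chr17:46970127-46973233, had 158 tags with the control shRNA and 474 with RECQL5 shRNA5 but no peak with RECQL5 shRNA7, where the nearest peak lay 21.853 kb away. In the overexpression arm it had 101 and 89 tags. Of the 4423 genes with a peak in the control and RECQL5 shRNA5 lists, 4.02% lacked one with RECQL5 shRNA7, and ATP5MC1 was the 1 such member of 42. Its paralogues for the same protein had 111, 486 and 669 tags (ATP5MC2) and 0, 288 and 623 tags (ATP5MC3).

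NDUFV2, a flavoprotein-fragment subunit of the complex I core at chr18:9102628-9134343, had 505, 1855 and 541 tags, ratios of 3.67 (3.33 to 4.06) and 1.07 (0.947 to 1.21). Its control and RECQL5 shRNA5 peaks reached its end, and the RECQL5 shRNA7 list held only the peak at its start. With summits outside the widened span left out, NDUFV2 had 505, 999 and 541 tags, so the hairpins differed less. COX6A1 had 63, 90 and 889 tags, 763 of the last in a peak that also touched TRIAP1 and GATC. ATP5F1D, the delta subunit of the head, had a peak of 3604 tags with RECQL5 shRNA7 and none with the control shRNA or RECQL5 shRNA5. That peak also touched MIDN and CIRBP, its summit was 14666 bp past the end of ATP5F1D, and it did not reach the promoter given above, which carried 19 and 16 tags in the overexpression arm. With RECQL5 shRNA5 the nearest peak to ATP5F1D, 3.348 kb away at MIDN and CIRBP, held 1314 tags.

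The core of complex I showed how much members of a single enzyme varied. NDUFV1, which binds NADH and FMN, had 0, 35 and 48 tags, the fewest of the core with either hairpin. NDUFS1, an iron-sulphur protein, had 100, 412 and 1395 tags and shares its promoter region with EEF1B2. NDUFS7 had 0, 84 and 557 tags, and NDUFS8 had 0, 126 and 459. All 7 core genes had peaks in both hairpin lists, and 3 had one in the control list. In complex III, the core protein UQCRC1 had 0, 196 and 352 tags and UQCRFS1, the Rieske iron-sulphur protein, 329, 964 and 1545. Part of these tags came from peaks centred outside the genes. With summits outside the widened span left out, NDUFS1 had 100, 412 and 571 tags and NDUFS8 had 0, 52 and 459. UQCRC1 then had 0, 196 and 96, so its order of the hairpins turned, and UQCRFS1 was unchanged.

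Small subunits of complexes III and IV varied as widely. COX6C had 0, 77 and 225 tags, COX7C had 68, 358 and 646, COX7B had 74, 426 and 382, and COX8A had 0, 57 and 392. They were present with both hairpins, and COX7B was the only 1 of these 4 with fewer tags with RECQL5 shRNA7 than with RECQL5 shRNA5. With summits outside the widened span left out, COX7B had 74, 162 and 382 tags, so its order of the hairpins turned. UQCR11, whose promoter is given above, had 0, 62 and 1671 tags, and 1541 of the last lay in a peak that touched MBD3.

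The 8 assembly factors were similar in presence to the subunits. With the control shRNA 3 had a peak, and all 8 did in each other list. NDUFAF3 had 161, 805 and 2391 tags and NDUFAF7 had 0, 1566 and 2094, in both cases largely in long peaks that touched neighbours such as QRICH1 and PRKD3. With summits outside the widened span left out, NDUFAF3 had 161, 116 and 2391 tags and NDUFAF7 had 0, 171 and 2094. NDUFAF8 then had 52, 0 and 0, so its presence with either hairpin rested on peaks centred outside it. NDUFAF1 had 82, 117 and 591 tags, the lowest ratio of any member with RECQL5 shRNA5 at 1.43 (1.07 to 1.92).

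The median tag ratio of members with doxycycline to without it was near 1, on tags not scaled for depth. For the 86 members with peaks in both lists it was 0.98 (quartiles 0.798 to 1.27), against 0.957 over 10378 genes. Of these members, 40 were above and 45 below 1. The median was 1.12 at equal list length (1.07 for all genes). It was 0.866 in members with no other coding gene within 2 kb (0.934 for all such genes). A ratio of at least 1.5 was reached by 10 members (11.6%, against 16.3% of all genes), and a ratio of at most 1 over 1.5 by 13 (15.1%, against 24.2%). No member gained a peak with doxycycline (against 1.08% of all genes) and 2 lost theirs, COX6B2 and UQCRHL (2.13%, against 11.7%). These contrasts depended on the cutoff. At equal list length 6.38% of members gained and 9.57% lost a peak, against 2.56% and 5.74% of all genes. With scores of at least 100, 2.13% gained and 11.7% lost one, against 1.13% and 11.7% of all genes. The density of the TSS peak was higher with doxycycline in 62 of 86 members, by a median of 1.13, as over all genes at 1.12.

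Members at the edges of the doxycycline ratios mostly had few tags. NDUFB5 had 22 tags without and 53 with doxycycline, a ratio of 2.41 (1.44 to 4.16), ATP5MG had 28 and 61, a ratio of 2.18 (1.37 to 3.54), and NDUFS8 had 18 and 37, a ratio of 2.06 (1.14 to 3.84). At the other edge NDUFA3 had 50 and 19, a ratio of 0.38 (0.212 to 0.656), ATP5IF1 had 66 and 34, a ratio of 0.515 (0.330 to 0.791), and NDUFB7 had 71 and 36, a ratio of 0.507 (0.330 to 0.768). COX7A1 of complex IV, at 0.425 (0.276 to 0.642), and the assembly factor NDUFAF5, at 0.435, were also at this edge. Both sides held genes of complexes I and V. Among members with over 100 tags in each list the highest was NDUFS1, with 172 and 316 tags, a ratio of 1.84 (1.52 to 2.23). COX5A had 13 gene-body peaks with doxycycline and 12 without, with 411 and 274 tags, a ratio of 1.5.

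Divergent promoters were common among the members. A coding gene on the other strand started within 1 kb upstream, or overlapped by under 300 bp, for 27 members (28.7%, against 9.64% of all genes), among them ATP5PF, which faces GABPA, and UQCRH, which faces LRRC41. With the control shRNA 11 of these 27 had a peak, and 31 of the 67 other members. Among all genes, 872 of 1905 divergent genes and 3577 of 17851 others did. A divergent partner therefore did not separate the members with and without a control peak, whereas it did among all genes.

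Genes of the same pathway that the symbol rule leaves out behaved similarly in presence. The 48 such genes covered complex II, cytochrome c, CYC1 (cytochrome c1, a subunit of complex III), assembly, mitochondrial gene expression and nuclear regulators. In the 5 lists 28, 45, 42, 47 and 48 of them had a peak (58.3%, 93.8%, 87.5%, 97.9% and 100%). The shares were 44.7%, 89.4%, 90.4%, 93.6% and 91.5% of members and 22.5%, 52.6%, 60.6%, 64.2% and 53.6% of all genes. Gene-body peaks were found in 9, 23, 26, 30 and 28 of the 48, against 11, 53, 65, 52 and 37 of the 94 members. Over all genes the shares were 9.31%, 31.1%, 38.7%, 40.2% and 27.9%. Gene-end peaks were found in 4, 10, 14, 17 and 14 of the 48, against 8, 38, 50, 30 and 19 members. Over all genes those shares were 5.06%, 15.8%, 20.8%, 15.7% and 11.3%. With the hairpins, gene-end peaks were thus less frequent than among the members. Median tag ratios of these other genes were 2.76 with RECQL5 shRNA5 (n = 28), 5.17 with RECQL5 shRNA7 (n = 25) and 1.0 with doxycycline (n = 47). Of the 6 genes for complex II, cytochrome c and cytochrome c1, 5 had a control peak and all 6 had a peak in every other list.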

How the data were processed

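RNAPII ChIP-seq was analysed from 5 deposited peak lists, 1 library each, and grouped by the sample labels. The authors base-called with CASAVA 1.8, aligned to hg19 (GRCh37) with Bowtie 0.12.7 and called peaks with MACS 1.4.2 against IgG. Per the file headers each deposited peak has a tag count, a significance score (the −log10 p-value times 10, at least 50 here), a fold enrichment (the ratio to background) and an FDR in percent. The authors did not scale the deposited tag counts for depth, and library totals were not used.

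Peaks were assigned to genes of GENCODE release 44 (GRCh37 coordinates), newer than the submitters' processing, by an overlap of at least 1 bp with the span widened by 500 bp. Shares carry Wilson 95% intervals and tag ratios exact (Clopper-Pearson) intervals, for counting error only. Promoter letters were searched on both strands. Assignment was tested on simulated data. Python 3.11.15, pandas 2.3.3, numpy 2.4.6, scipy 1.17.1 and matplotlib 3.10.9 were used. Named members were central subunits, tissue-restricted paralogues, those with most tags, with the 5 highest and 5 lowest ratios per pair, with gene-body peaks in the control or with no peak. The other genes named were chosen after their values were seen. Members and lists were chosen with earlier results of these data known. With 1 library per group no test was run. Stricter score, FDR and enrichment limits, other assignment rules and equal list lengths were tried. The individual values of 1 member are not reported here.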

Additional observations from a re-analysis of the deposited data

Results flagged for a closer look

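ATP5MC1 stood out because the hairpin lists differed on either side of the control. From 158 tags with the control shRNA it had 474 tags with RECQL5 shRNA5 and 0 tags with RECQL5 shRNA7, where no peak was listed. The 0 is the absence of a listed peak and measures no fall in RNAPII, and the difference was not tested, since each group is 1 library. Among other genes of the pathway, COX11 (66, 722 and 0 tags), TTC19 (1310, 1196 and 0) and UQCC2 (232, 1209 and 0) also had no listed peak with RECQL5 shRNA7.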

How the results depend on the processing

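Over 10 alternatives, 247 values of 39 results were recomputed. Of these, 189 stayed within the counting interval or spread of the reported value and 58 moved beyond it, and the cause was not tested. Shares below are percent of members unless all genes are named. With scores of at least 100, a peak was found in 20.2 (control shRNA), 77.7 (RECQL5 shRNA5) and 79.8 (doxycycline), a gene-body peak in 4.26, 40.4, 25.5 (no doxycycline) and 17.0, and a gene-end peak in 3.19, 28.7, 17.0 and 9.57. Over all genes a peak was found in 11.4, 43.0 and 42.4. Gene-body peaks were in 4.95, 22.1, 18.2 and 13.9 of all genes and gene-end peaks in 2.88, 11.7, 7.28 and 6.27. Gains were 58.5 (RECQL5 shRNA5) and 69.1 (RECQL5 shRNA7) and doxycycline losses 11.7, against 31.6, 42.8 and 11.7 of all genes. With a fold enrichment of at least 10, RECQL5 shRNA5 and RECQL5 shRNA7 gave peaks in 61.7 and 76.6 and gene-body peaks in 10.6 and 31.9 (9.57 with the control shRNA), and doxycycline gave gene-body peaks in 23.4. Over all genes those peaks were in 29.8 and 39.9. Gene-body peaks were in 8.61 and 14.7 of all genes (7.33 with the control shRNA) and in 14.9 with doxycycline. RECQL5 shRNA5 gains were 21.3, its median ratio was 2.23 and doxycycline losses were 7.45, against 11.8, 2.24 and 20.1 over all genes. With summits required in the widened span, gene-body peaks were in 44.7 (RECQL5 shRNA5) and 54.3 (RECQL5 shRNA7) and the RECQL5 shRNA5 ratio was 2.6. Over all genes these values were 28.1, 33.8 and 2.9. With lists cut to the shortest, in the order RECQL5 shRNA5, RECQL5 shRNA7, no doxycycline and doxycycline, peaks were in 47.9, 52.1, 57.4 and 54.3, gene-body peaks in 24.5, 31.9, 5.32 and 7.45, and gene-end peaks in 16.0, 22.3, 2.13 and 5.32, so that the order of the doxycycline lists turned for gene-body and gene-end peaks. The all-gene shares of such peaks at equal list length are given above. Gains were 10.6 (RECQL5 shRNA5), 21.3 (RECQL5 shRNA7) and 6.38 (doxycycline), losses 7.45, 13.8 and 9.57, the doxycycline ratio 1.12, against 0.98 in the full lists, and the tag percentiles 49.6 (RECQL5 shRNA7), 42.4 (no doxycycline) and 42.2 (doxycycline). Over all genes gains were 7.2, 12.0 and 2.56, losses 4.03, 5.94 and 5.74 and the doxycycline ratio 1.07. In members with no other coding gene within 2 kb, gene-body peaks were in 40.7 (no doxycycline) and 29.6 (doxycycline), gene-end peaks without doxycycline in 22.2, the doxycycline ratio was 0.866 and its percentile 41.3. Over all such genes, gene-body peaks were in 31.4 and 20.5, gene-end peaks without doxycycline in 9.01, and the doxycycline ratio was 0.934. The strongest peak of these members was at the start in 90, 62.5, 56.5, 100 and 95.8 over the 5 lists, and at or past the end in 0.0 without doxycycline. Over all such genes those values were 61.0, 48.8, 48.5, 73.9 and 75.7 at the start and 3.6 at or past the end. An FDR of at most 5%, spans that were not widened, other start definitions and leaving out the read-through genes moved no value by that measure. The gene-end and position measures, with their alternatives, and the alternative without read-through genes were added after seeing the data. No paired analysis was possible because every condition has a lone library, and for the same reason no replicate could be left out. Depth limits absences: a gene with no listed peak had no peak past the score limit, which does not show that RNAPII was absent.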

Other observations

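The promoter letters were not spread evenly over members with and without a control shRNA peak. The NRF-1 letters were found in 7 of 42 members with such a peak (16.7%) and in 19 of 52 without (36.5%), whereas the GABP letters were in 26.2% and 25% and the YY1 letters in 11.9% and 9.62%. This comparison was chosen after seeing the data and was not tested. The same split was not made over all coding genes, so it cannot be called particular to the members.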
